A study of Mus musculus with 10 samples.

Results

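The 10 enzymes examined here carry glucose to lactate: hexokinase 2 (Hk2), glucose phosphate isomerase (Gpi1), the platelet form of phosphofructokinase (Pfkp), aldolase A (Aldoa), triosephosphate isomerase (Tpi1), phosphoglycerate kinase (Pgk1), phosphoglycerate mutase (Pgam1), enolase (Eno1), muscle-type pyruvate kinase (Pkm) and lactate dehydrogenase A (Ldha). They were chosen by symbol, as the chain from hexokinase to lactate dehydrogenase, with earlier results of these data known. Gapdh, the enzyme between Tpi1 and Pgk1, is not among them. Each symbol matched 1 of the 37417 genes in the count table, and all 10 passed the filter on low counts, as 15299 genes did in all. To assess whether these enzymes differ once Cda, which encodes the pyrimidine salvage enzyme cytidine deaminase, is targeted in cancer cells, bulk RNA-seq counts of 10 subcutaneous (s.c.) tumors were compared. The tumors grew from Panc02 cells, a mouse pancreatic cancer line, on the flank of wild-type C57BL/6J mice aged 12 weeks and were taken on day 16. The guide RNA in the injected cells was directed at Cda in 5 tumors (sgCda) and was nontargeting in 5 (sgNT), and the cells of both groups had been given a Cas9 nuclease that doxycycline switches on. Guide and nuclease were given to the injected cells alone, so host cells in the tumor were not edited. Whether the injected cells were a clone or a pool is not given for these tumors.

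Glycolysis splits glucose into pyruvate in the cytosol and yields ATP without oxygen, and lactate dehydrogenase then turns pyruvate into lactate so that the chain can go on. Hexokinase, phosphofructokinase and pyruvate kinase catalyse its irreversible steps, and the other enzymes work close to equilibrium. Many tumors use glycolysis heavily even where oxygen is present, and most of the genes above are known targets of hypoxia-inducible factor (HIF), which switches on glycolytic genes when oxygen is scarce. Glycolytic enzymes are also abundant in skeletal muscle and in activated leukocytes, which a s.c. tumor also holds.

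Libraries held 28051907 to 39484964 counts assigned to genes. Cda transcript itself did not separate the labels, with a mean of 12.1 ± 1.76 CPM for sgNT against 9.77 ± 2.34 CPM for sgCda (SD, n = 5 each; edgeR quasi-likelihood test, unadjusted p = 0.0963, adjusted p = 0.9996), so directions below are those of the labels. The paper checked the silencing of Cda in its engineered cells by RT-qPCR and western blotting. It also reports Cda in endothelial cells and some in fibroblasts of its Panc02 and KPC tumors, cells not edited here. How much such cells added to the Cda counts was not tested. CPM is edgeR's unit of counts relative to the scaled library total. Of the epithelial marker list, 7 of 8 genes passed the filter and the summed level ran from 571 to 1017 CPM, mostly from the keratins Krt8 and Krt18. Over all 10 tumors Cdh1 had 5673 and Krt19 5067 counts. Epcam had 471, Cldn7 443, Krt7 233 and Cldn4 41, so these markers were low beside the others of the list. The macrophage list ran from 3110 to 4413 CPM. The skeletal muscle list stood apart in sgCda replicate 3, at 2340 CPM against 5.82 to 613 CPM in the other tumors. In sgCda replicate 4, 18.4% of uniquely aligned reads lay outside genes, against 10.3% to 14.9% elsewhere.

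Glycolytic transcripts were among the abundant ones in every tumor, and their order along the pathway was steady. Per kilobase of exon, the unit needed to set genes beside each other, Pkm was the most abundant at 406 ± 72.3 CPM per kilobase (mean ± SD, n = 10 tumors of both groups). Ldha followed at 338 ± 71.9, Aldoa at 300.4 ± 64.4, Tpi1 at 244 ± 37.6 and Pgk1 at 166 ± 44.3 CPM per kilobase. Eno1 (95.7 ± 21.2), Gpi1 (80.1 ± 12.1) and Pgam1 (66.1 ± 13.1) lay in the middle of the order, on the same scale. The members at the hexokinase and phosphofructokinase steps were far lower, Hk2 at 11.9 ± 2.48 and Pfkp at 8.70 ± 1.24 CPM per kilobase. Other isoenzymes add to these steps, with Hk1 at 20.8, Hk3 at 27.3, Pfkl at 19.2 and Pfkm at 16.6 CPM per kilobase. Neighbours in this order kept their places within single tumors in nearly every case. Ldha exceeded Aldoa in 9 of 10 tumors (mean difference in log2 level 0.17, SD 0.16), and Eno1 exceeded Gpi1 in 9 of 10 (0.24, SD 0.20). For the other 7 pairs of neighbours the higher gene was higher in all 10 tumors. With the length of the longest coding transcript in place of the whole exonic length, a choice made after the values were seen, Eno1 moved above Pgk1 (254 against 204 CPM per kilobase) and Pfkp above Hk2 (28.1 against 12.9), while Pkm, Ldha, Aldoa and Tpi1 kept their places. Pkm counts add up the transcripts of the PKM1 and PKM2 isoforms, which gene counts do not tell apart.

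Hk2, the hexokinase that commits glucose to the cell by phosphorylating it, gave the smallest p of the 10 members and is described first with Aldoa. Hk2 (ENSMUSG00000000628, GRCm38 chromosome 6, 82725025 to 82774454, minus strand) stood at 67.7, 56.4, 84.4, 85.2 and 50.4 CPM in sgNT replicates 1 to 5 and at 61.0, 64.4, 95.1, 82.8 and 61.9 CPM in sgCda replicates 1 to 5. The groups overlapped over most of their ranges, with high and low tumors in each. The log2 fold change of sgCda over sgNT was 0.09 (SE 0.18, 95% CI −0.30 to 0.47), which is within the spread of the tumors (edgeR, unadjusted p = 0.634, adjusted p = 0.9996). Aldoa, which cleaves fructose bisphosphate into a pair of triose phosphates (ENSMUSG00000030695, chromosome 7, 126795234 to 126800751, minus strand), stood at 693, 705, 1073, 1054 and 734 CPM in sgNT replicates 1 to 5. In sgCda replicates 1 to 5 it stood at 733, 752, 1226, 839 and 936 CPM. Here too each group held tumors on both sides of the other group's mean. For Aldoa the log2 fold change came to 0.07 (SE 0.18, 95% CI −0.32 to 0.47; edgeR, unadjusted p = 0.683, adjusted p = 0.9996).

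None of the 10 enzymes passed the test between sgCda and sgNT tumors. Past an adjusted p of 0.05 there were 0 of 10 members, where 0% of the 15299 genes tested passed. At an unadjusted p under 0.05 there were also 0 of 10, where 2.50% of all genes tested passed. In 0 of 10 were the groups free of overlap, where 0.601% of all genes were. The log2 fold changes ran from −0.06 (Eno1) to 0.09 (Hk2), 6 above and 4 below 0, with a median of 0.02 beside 0.01 over all genes tested, of which 52.9% were above 0. The intervals show how large a difference these 10 tumors could have hidden. The narrowest was that of Pfkp, from −15.9% to 22.4%, and the widest that of Pgk1, from −24.4% to 47.0%. For the enzymes of the last steps, the intervals were −28.2% to 27.7% for Eno1, −23.6% to 24.0% for Pkm and −23.6% to 33.4% for Ldha. Without sgCda replicates 3 and 4 together, a choice made after the values were seen, the fold changes of all 10 members were below 0, from −0.14 (Hk2) to −0.01 (Ldha) on the log2 scale, and 0 passed either threshold.

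**Figure D1:**
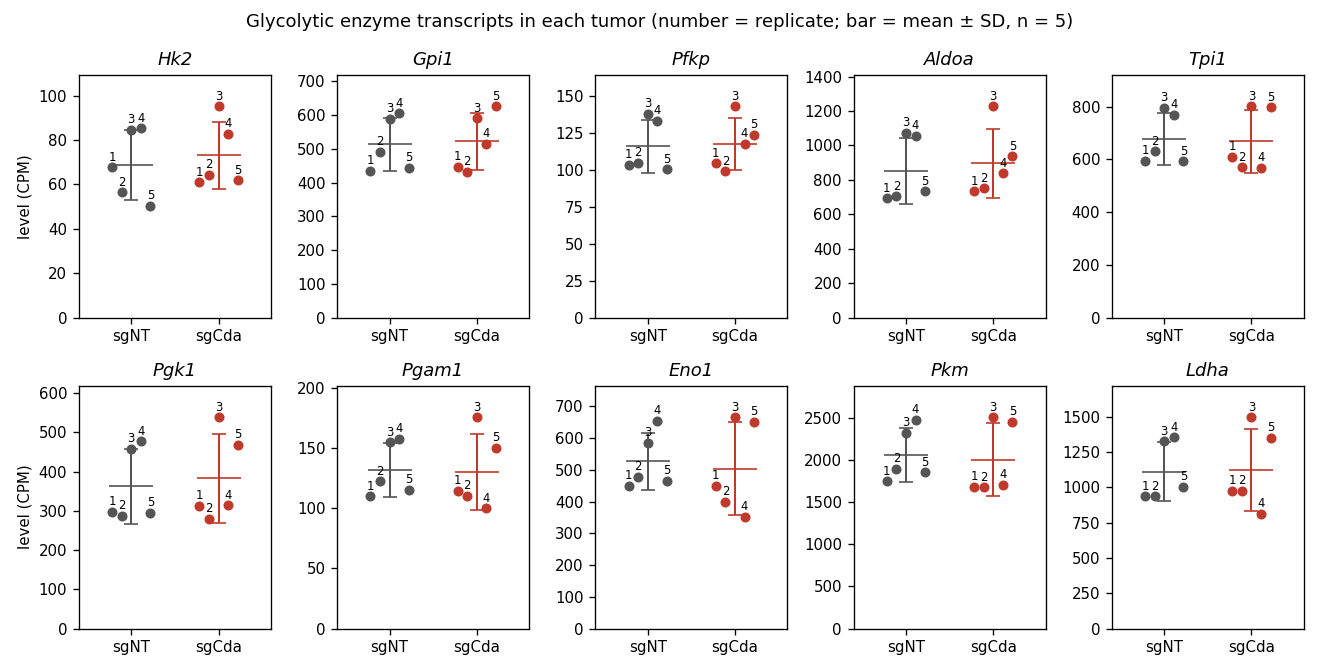
Level (CPM, axis from 0) of each glycolytic enzyme transcript in the 5 sgNT (grey) and 5 sgCda (red) tumors, with replicate numbers beside the points and the mean ± SD as a bar. In every panel the groups overlap, and replicates 3 and 4 of sgNT and replicate 3 of sgCda lie high.

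**Figure D2:**
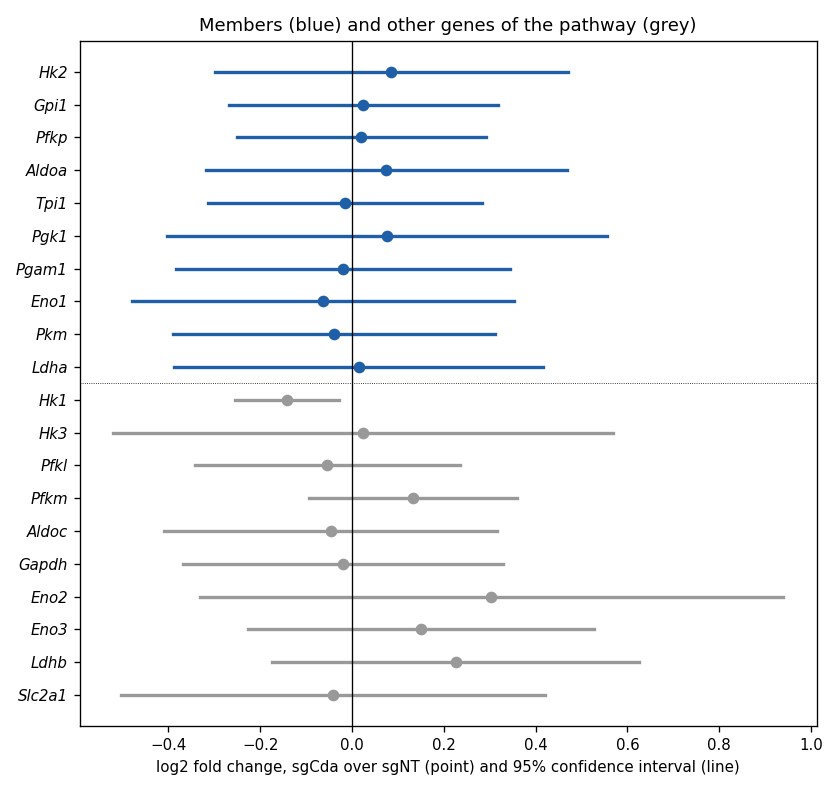
Log2 fold change of sgCda over sgNT (points) with 95% confidence intervals (lines) for the 10 members (blue) and 10 other genes of the pathway (grey), from edgeR's quasi-likelihood fit. The lines of all 10 members cross 0, and among the genes drawn only that of Hk1 does not.

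Single tumors differed more in these enzymes than the group means did. The SD of log2 CPM over the 10 tumors ran from 0.20 (Pfkp) to 0.37 (Pgk1), and it exceeded the median SD of 0.14 among the 3556 genes at or above the level of the lowest member in 10 of 10 members. The difference between group means took 0.0028% (Ldha) to 2.68% (Hk2) of a member's variance, where the median over all genes was 4.38%. Together the members took 0.548%, 0.574%, 0.732%, 0.766% and 0.570% of assigned counts in sgNT replicates 1 to 5. In sgCda replicates 1 to 5 they took 0.552%, 0.531%, 0.837%, 0.544% and 0.757%. The group means were 0.638% ± 0.102 and 0.644% ± 0.142 (SD, n = 5 each). No tumor lay between 0.574% and 0.732%, a gap that made up 51.5% of the whole range and left 4 tumors above it, a pair from each group.

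The split was the sharpest for Pgk1, which makes the first ATP of the pathway (ENSMUSG00000062070, chromosome X, 106187100 to 106203699, plus strand). Pgk1 stood at 297, 287, 457, 477 and 295 CPM in sgNT replicates 1 to 5 and at 313, 280.0, 538, 314 and 468 CPM in sgCda replicates 1 to 5. On the log2 scale 0.54 separated the lowest of its 4 high tumors (457 CPM) from the highest of the other 6 (314 CPM). The split was not clear in every member. The same step was 0.07 for Pfkp (14.0% of its range) and 0.16 for Aldoa (19.3%). The widest gap of each of these genes lay at another place in the order. Ldha, the enzyme that turns pyruvate into lactate (ENSMUSG00000063229, chromosome 7, 46841475 to 46855627, plus strand), stood at 937, 937, 1326, 1355 and 1007 CPM in sgNT and at 978, 978, 1498, 812 and 1352 CPM in sgCda replicates 1 to 5. The same tumors were high as for Pgk1, and sgCda replicate 4 was the lowest. Pkm, which makes pyruvate from phosphoenolpyruvate (ENSMUSG00000032294, chromosome 9, 59656368 to 59679375, plus strand), ran from 1674 to 2507 CPM with the same 4 tumors at 2320 CPM or more and the others at 1894 CPM or less.

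In 9 of the 10 members the 4 highest values belonged to the same tumors, sgNT replicates 3 and 4 and sgCda replicates 3 and 5. This way of counting was chosen after the values were seen and is a description, with no test. Of all genes tested, 583 (3.81%) had the same 4 tumors on top. Leaving out 1 tumor keeps the order of the others, so it could not lower the count of members and is no check of it. The share of all genes was 4.74% without sgCda replicate 3, for the other 3 of these tumors, and 4.77% without sgCda replicate 4. The highest value of all was in sgCda replicate 3 for 9 members and in sgCda replicate 5 for Gpi1 (ENSMUSG00000036427, chromosome 7, 34201330 to 34230336, minus strand), the isomerase between hexokinase and phosphofructokinase, at 625 CPM. The lowest was in sgCda replicate 2 for 4 members and in sgCda replicate 4 for another 4. The remaining members with the shared order were Pfkp, which commits sugar to glycolysis (ENSMUSG00000021196, chromosome 13, 6579768 to 6648777, minus strand, 99.0 to 143 CPM), and Tpi1, which interconverts the triose phosphates (ENSMUSG00000023456, chromosome 6, 124810586 to 124814296, minus strand, 568 to 801 CPM). With them went Aldoa, Pgam1, which moves the phosphate of phosphoglycerate (ENSMUSG00000011752, chromosome 19, 41911923 to 41918660, plus strand, 99.9 to 176 CPM), and Eno1, the enolase that makes phosphoenolpyruvate (ENSMUSG00000063524, chromosome 4, 150236721 to 150248879, plus strand, 352 to 665 CPM). From the highest to the lowest tumor the fold was between 1.41 (Tpi1) and 1.92 (Pgk1).

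Hk2 was the member outside this order. Its 4 highest tumors held sgCda replicate 4 in place of sgCda replicate 5. Each member's log2 level, centred on its own mean over the tumors, was set against the mean of the other members in the same tumor. On this measure Hk2 departed by 0.47 in sgCda replicate 4 and by −0.43 in sgCda replicate 5. In sgCda replicate 4 the members of the upper and the lower pathway parted. Gpi1 (0.20), Pfkp (0.22) and Aldoa (0.16) each stood above the mean of the other members in that tumor, as Hk2 did. Eno1 (−0.38), Ldha (−0.29), Pgam1 (−0.21), Pkm (−0.07), Tpi1 (−0.06) and Pgk1 (−0.03) each stood below it. This is 1 tumor with no replicate of its own, and it is also the tumor with the highest share of reads outside genes and the fewest assigned counts. The part of that in the departures was not tested.

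**Figure D3:**
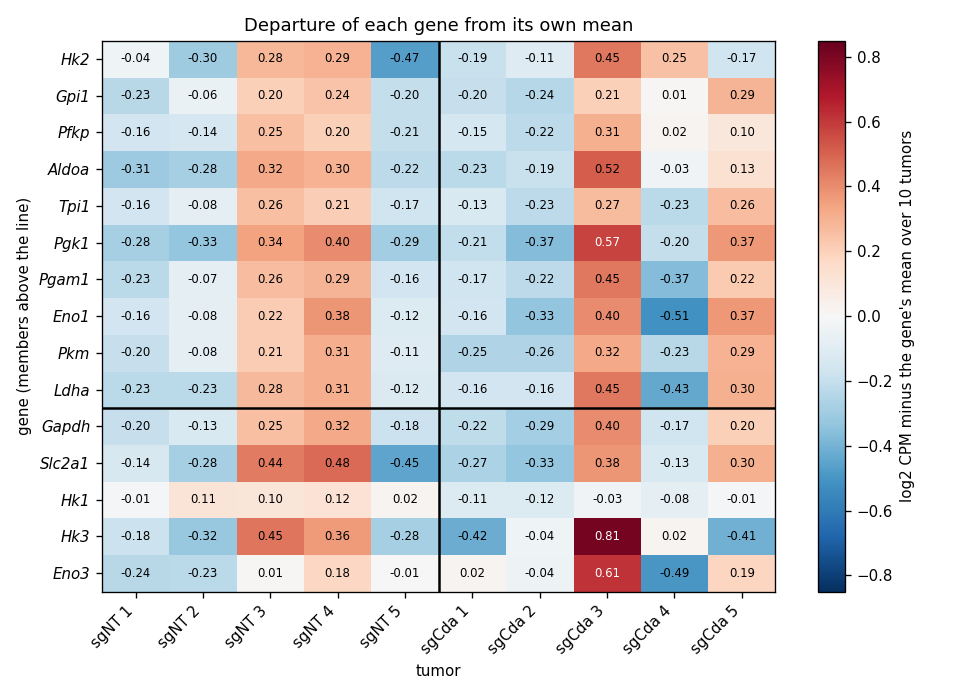
Departure of each gene from its own mean over 10 tumors, in log2 CPM (colour and printed value), with members above the horizontal line and Gapdh, Slc2a1, Hk1, Hk3 and Eno3 below it, and sgNT tumors left of the vertical line. The columns of sgNT replicates 3 and 4 and sgCda replicate 3 are above 0 for all members, sgCda replicate 5 is so for all but Hk2, and Hk2 in sgCda replicate 4 is above its mean where Eno1 and Ldha are below theirs.

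Because the tumors fell into separate clusters on the members' share of counts, though not on every member, no correlation over all 10 was computed between members. Among the 6 tumors below the gap, which were set apart by the same values, so that their range is short, 22 of 45 pairs of members had a Pearson r above 0 and the median r was −0.06. In 9 pairs the exact permutation p for Pearson's r was under 0.05 before adjustment, and for Spearman's rho in 2. The 6 include sgCda replicate 4, and single tumors weigh on r. Without the 2 tumors farthest from the median of Hk2, r of Hk2 with Ldha moved from −0.86 to 0.10. That of Hk2 with Pgam1 moved from −0.87 to −0.97. After adjustment over the 45 pairs none passed, with the smallest adjusted exact permutation p at 0.194 for r and 0.375 for rho.

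Sequence upstream of these genes is shown because 9 of them shared 1 order of tumors and Hk2 did not. The 250 bases before the start site were read from RefSeq (GRCm38.p6), where all 10 members matched, with 16 start sites in all. HIF binds ACGTG or GCGTG, and MYC and its relatives bind CACGTG. Searched on both strands, ACGTG was in front of at least 1 start site of 6 members (Hk2, Aldoa, Pgk1, Pgam1, Pkm and Ldha) and of 18.5% of the 27025 genes in the table. Counted by window it was in 7 of 16 windows of members and in 16.6% of all 32851 windows. GCGTG was found for 4 members (Pfkp, Pgam1, Eno1 and Ldha) and for 30.9% of all genes, in 6 of 16 windows of members and 28.2% of all windows. CACGTG, which holds ACGTG on both strands, was found for Ldha alone among the members and for 6.86% of all genes, in 1 of 16 windows of members and 6.02% of all windows. Some windows of Aldoa and of Eno1 overlap, so a match there can be counted more than once by window. A match is a run of letters and no evidence of binding. The windows of Pgk1 (chrX:106186850-106187099, plus strand), Ldha (chr7:46845554-46845803, plus strand), Pgam1 (chr19:41911621-41911870, plus strand), Aldoa (chr7:126799255-126799504, minus strand) and Hk2 (chr6:82774455-82774704, minus strand) follow, 5′ to 3′, with ACGTG on either strand in capitals. No annotated exon lies in any of these 5 windows.
Pgk1: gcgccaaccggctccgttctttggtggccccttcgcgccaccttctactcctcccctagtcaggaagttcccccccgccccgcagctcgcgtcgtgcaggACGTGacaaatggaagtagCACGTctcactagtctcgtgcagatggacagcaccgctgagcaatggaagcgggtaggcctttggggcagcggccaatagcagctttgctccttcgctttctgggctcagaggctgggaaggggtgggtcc
Ldha: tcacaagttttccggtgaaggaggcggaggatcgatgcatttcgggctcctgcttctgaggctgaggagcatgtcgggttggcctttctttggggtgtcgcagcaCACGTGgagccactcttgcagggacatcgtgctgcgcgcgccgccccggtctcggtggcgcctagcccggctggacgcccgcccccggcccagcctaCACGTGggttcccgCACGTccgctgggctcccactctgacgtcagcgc
Pgam1: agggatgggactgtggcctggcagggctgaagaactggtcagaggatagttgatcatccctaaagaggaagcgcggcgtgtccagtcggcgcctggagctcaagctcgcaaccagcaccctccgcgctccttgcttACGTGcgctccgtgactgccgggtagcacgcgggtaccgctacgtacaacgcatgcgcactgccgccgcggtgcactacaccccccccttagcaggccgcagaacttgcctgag
Aldoa: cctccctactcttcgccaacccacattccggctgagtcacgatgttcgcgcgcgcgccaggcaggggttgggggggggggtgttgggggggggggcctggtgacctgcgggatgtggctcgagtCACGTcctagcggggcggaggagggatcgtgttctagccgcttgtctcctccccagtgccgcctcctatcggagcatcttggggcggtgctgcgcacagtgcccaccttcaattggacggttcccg
Hk2: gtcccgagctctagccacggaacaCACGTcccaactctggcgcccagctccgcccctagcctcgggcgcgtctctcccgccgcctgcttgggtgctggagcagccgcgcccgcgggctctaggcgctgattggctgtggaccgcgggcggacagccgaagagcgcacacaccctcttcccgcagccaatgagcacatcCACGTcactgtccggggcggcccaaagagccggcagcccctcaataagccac

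Pgk1, the member with the sharpest split, had ACGTG 150 and 131 bases before its start. Ldha had 2 CACGTG, which begin 145 and 48 bases before the start, and another ACGTG at 34. Hk2, outside the shared order, had ACGTG as well, 226 and 52 bases before its start. Hk2 had no GCGTG. Of the members with the shared order, Pfkp and Eno1 had GCGTG and no ACGTG, and Tpi1 and Gpi1 had neither in these windows.

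The pathway around the members showed the same picture between groups. Of 38 other genes of glycolysis, glucose and lactate transport and pyruvate entry, 30 passed the filter. Past an adjusted p of 0.05 there were 0 of 30. At an unadjusted p under 0.05 there was 1 of 30, where 2.50% of all genes passed, so this count is near the background. Of the 30, 18 had a fold change above 0 and 12 below, with a median of 0.04 on the log2 scale. The gene was Hk1, the hexokinase most tissues use. Hk1 stood at 176, 191, 190.2, 193 and 180 CPM in sgNT replicates 1 to 5 and at 164, 163, 173, 168 and 175 CPM in sgCda replicates 1 to 5. All 5 sgCda tumors lay below all 5 sgNT tumors, as in 0.601% of all genes. The closest were sgCda replicate 5 (175 CPM) and sgNT replicate 1 (176 CPM). The means were 186 ± 7.74 and 169 ± 5.58 CPM (SD, n = 5 each), a log2 fold change of −0.14 (SE 0.05, 95% CI −0.25 to −0.03; edgeR, unadjusted p = 0.0190, adjusted p = 0.9996). The difference was not significant over all genes. Leaving out each tumor in turn gave unadjusted p values from 0.0158 to 0.0553 (edgeR), with 8 of 10 under 0.05 and those without sgCda replicate 1 or sgCda replicate 2 above it. Hk1 did not follow the order of the tumors seen in the members, and its SD of log2 CPM was 0.09.

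Without sgCda replicates 3 and 4, 519 of all 15515 genes tested had an unadjusted p under 0.05 (edgeR). Of the 30 pathway genes 5 did so, and none had an adjusted p under 0.05. These were Hk1, the glucose transporter Slc2a3, the lactate dehydrogenase Ldhb and the subunits of the mitochondrial pyruvate carrier Mpc1 and Mpc2, named after their values were seen.

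Where a step has several isoenzymes, the ratio within a tumor is free of library scaling. Ratios of levels per exonic kilobase were tested by exact permutation of the group labels (two-sided), and 0 of 8 ratios passed after adjustment, with a smallest adjusted p of 0.614. The level of a ratio depends on which length is used, so it is also given with the longest coding transcript, a choice made after the values were seen. At the first step Hk2 was lower than Hk1, at a geometric mean ratio of 0.562 (0.305 by coding transcript), and lower than the myeloid hexokinase Hk3, at 0.443 (0.420 by coding transcript). In sgNT replicates 1 to 5 the ratio of Hk2 to Hk1 was 0.551, 0.422, 0.635, 0.631 and 0.401, and in sgCda replicates 1 to 5 it was 0.533, 0.565, 0.784, 0.705 and 0.505. The sgCda values lay higher on average, by 0.23 on the log2 scale (SE 0.19), within the overlap of the groups (exact permutation p = 0.230, adjusted p = 0.614).

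At the phosphofructokinase step Pfkp was lower than the liver form Pfkl with either length, at a ratio of 0.455 per exonic kilobase and 0.822 by coding transcript. Against the muscle form Pfkm the order turned with the length, from 0.524 per exonic kilobase to 1.46 by coding transcript, where Pfkp was higher in 10 of 10 tumors. Aldoa, Eno1 and Ldha were far above Aldoc, the neuronal enolase Eno2 and Ldhb with either length. Geometric mean ratios were 38.8 for Aldoa to Aldoc (62.2 by coding transcript), 58.9 for Eno1 to Eno2 (92.8) and 44.6 for Ldha to Ldhb (67.5). Against the muscle enolase Eno3, Eno1 stood at a ratio of 0.918 per exonic kilobase and 2.19 by coding transcript. Eno1 counts lack reads from stretches shared with other genes, as described below, so the levels of its ratios are uncertain. Per exonic kilobase the ratio of Eno1 to Eno3 was 0.967, 1.02, 1.06, 1.05 and 0.850 in sgNT replicates 1 to 5 and 0.807, 0.749, 0.792, 0.905 and 1.04 in sgCda replicates 1 to 5. The groups overlapped through sgNT replicate 5 and sgCda replicates 4 and 5. The difference was −0.21 on the log2 scale (SE 0.10, exact permutation p = 0.0873, adjusted p = 0.614). A fixed length moves the ratio by the same factor in every tumor, so the tests between groups do not depend on it. Pfkp has 13401 exonic bases and 4145 in its longest coding transcript.

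**Figure D4:**
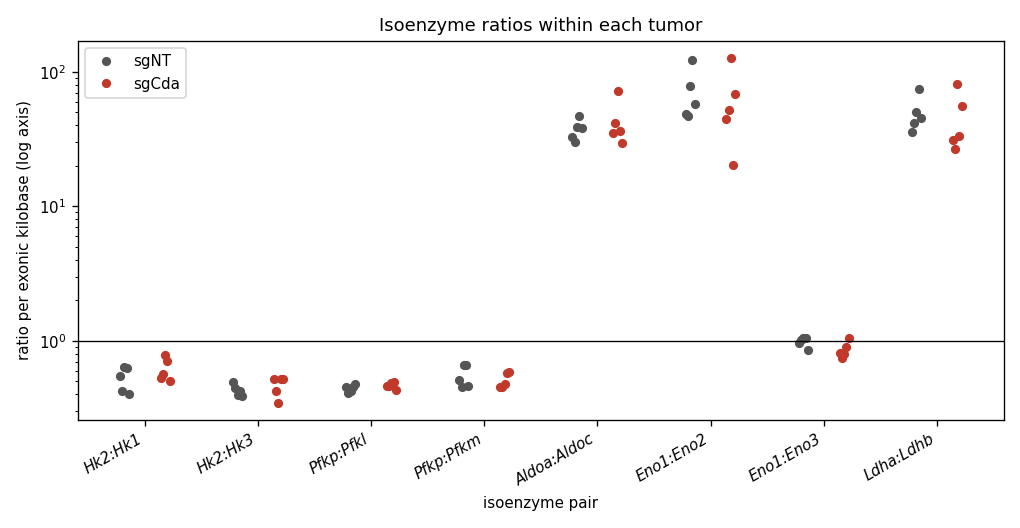
Ratio of 8 pairs of isoenzymes per exonic kilobase (log axis) in each sgNT (grey) and sgCda (red) tumor. Aldoa, Eno1 and Ldha exceed Aldoc, Eno2 and Ldhb by a factor of 20.2 or more in every tumor, while Hk2 and Pfkp lie below their isoenzymes and Eno1 lies near Eno3 on this scale. By coding transcript the geometric means would be 1.46 for Pfkp to Pfkm and 2.19 for Eno1 to Eno3.

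Among the other genes of the pathway, 5 of 30 had their 4 highest values in the same 4 tumors as the members, against 3.81% of all genes. They were the glucose transporter Slc2a1, Pfkl, Gapdh, the lactate exporter Slc16a3 and Pdk1, a kinase that keeps pyruvate out of the mitochondrion, some of them named after their values were seen. Of the 14 hypoxia genes it was 5, Hif1a, Egln1, Car9, Bnip3 and Ero1l. The summed level of the list was 1308, 1419, 1684, 1594 and 1278 CPM in sgNT replicates 1 to 5 and 1375, 1321, 1375, 1596 and 1892 CPM in sgCda replicates 1 to 5. Of the 4 tumors high for the members, 3 were among the 4 highest for this sum. The other, sgCda replicate 3, was the highest for 9 members, and sgCda replicate 4 was high for the sum with the members at 0.544% of counts. The part of hypoxia in the members' order was not tested.

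Likeness to the members was measured as Pearson's r between a gene's log2 CPM and the mean standardized log2 CPM of the 10 members over the 10 tumors, for 10327 other genes of mean log2 CPM of at least 3. It is a description, and the tumors share 1 split, so a high r may rest on it alone. The gene most like the members was Gapdh (r = 0.995), the enzyme between Tpi1 and Pgk1. Gapdh stood at 470, 492, 641, 673 and 474 CPM in sgNT replicates 1 to 5 and at 462, 441, 710, 479 and 619 CPM in sgCda replicates 1 to 5, the same tumors high as for Pgk1. Next came Hspa9, a mitochondrial chaperone (0.962), Fbxo5, an inhibitor of the anaphase-promoting complex (0.961), Slc2a1 (0.957) and Bnip3, a mitophagy receptor (0.956). Lowest were Taf9b (−0.940), the protease Prss23 (−0.938) and the lipid-sensing nuclear receptor Ppard (−0.937). In all, 70 genes reached an r of 0.9. Of the 11 hypoxia genes in this search 3 did so. Their r ran from −0.863 to 0.956, with a median of 0.383. The members themselves, which are part of the mean, ran from 0.683 (Hk2) to 0.991 (Pgk1).

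Marker lists of other cell types were read beside this order, since a bulk level cannot tell fewer cells of a type from less RNA per cell. The summed level of the 12 skeletal muscle genes was 13.6, 6.10, 396, 583 and 20.3 CPM in sgNT replicates 1 to 5 and 613, 332, 2340, 36.3 and 5.82 CPM in sgCda replicates 1 to 5. All 12 were counted in some tumor, 10 passed the filter and 9 were detected in every tumor. Of the 4 tumors high for the members, 3 were among the 4 highest for muscle. The other, sgCda replicate 5, was high for 9 members and had the lowest muscle level of all. In sgCda replicate 1 muscle was at 613 CPM with the members at 0.552% of counts. In 0 of the 10 muscle genes tested were the same 4 tumors on top, where 3.81% of all genes had them there, so this count is near the background. With the muscle score as a covariate, 0 members passed either threshold, and Ldha and Pfkp turned from above to below 0.

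The epithelial list was 592, 767, 778, 924 and 647 CPM in sgNT replicates 1 to 5 and 658, 571, 727, 609 and 1017 CPM in sgCda replicates 1 to 5. Its 3 highest tumors were among the 4 high for the members, and 1 of its 7 genes tested, Krt19, had the same 4 tumors on top. Of the 8 cell cycle genes this held for 2, Ccnb1 and Cdk1. In the adipocyte, macrophage, T cell, neutrophil, erythroid, endothelial and fibroblast lists it held for 0 genes. Over all genes the share was 3.81%, so 0 in lists this short is near the background. The summed cell cycle level was 1488, 1770, 1532, 1919 and 1522 CPM in sgNT replicates 1 to 5. In sgCda replicates 1 to 5 it was 1459, 1205, 1924, 1415 and 1724 CPM. The T cell list was highest in sgCda replicate 3, at 644 CPM against 188 to 426 CPM in the other tumors. The part of muscle, of epithelial cells, of T cells or of the cell cycle in the members' order was not tested.

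**Figure D5:**
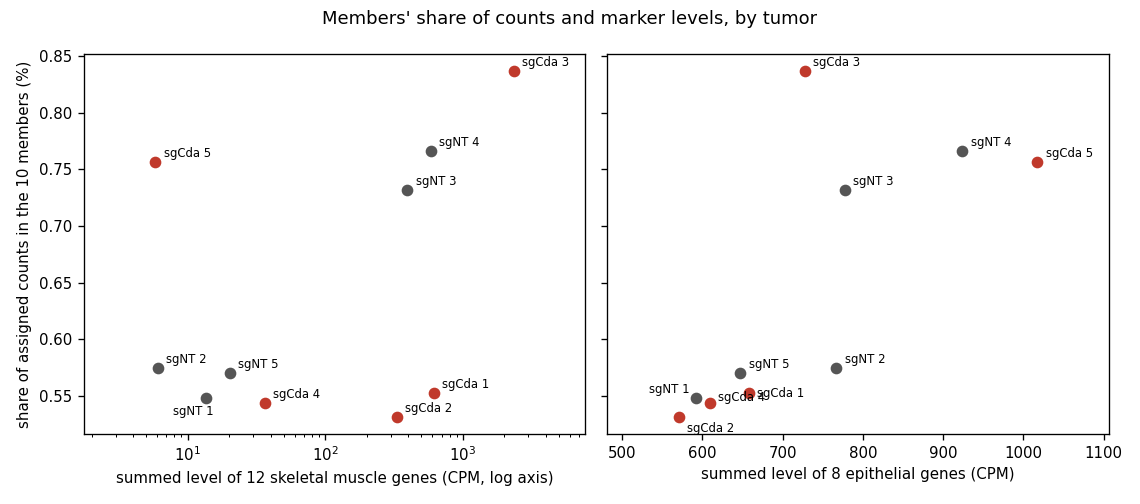
Share of assigned counts in the 10 members (percent) against the summed level (CPM) of 12 skeletal muscle genes (left, log axis) and of 8 epithelial genes (right), 1 point for each sgNT (grey) and sgCda (red) tumor. The 4 tumors at 0.732% or more include sgCda replicate 5 with the lowest muscle level, 5.82 CPM, and sgCda replicate 3 with the highest, 2340 CPM.

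Several members share stretches of sequence with other annotated genes, as copies elsewhere or by overlap in place, which can bear on read assignment. Stretches of 50 bases in the longest coding transcript were searched on either strand. The share also found in another annotated gene was 72.2% for Eno1, 68.0% for Pgk1, 41.5% for Pgam1 and 34.4% for Pkm. It was 25.3% for Gpi1, 17.1% for Pfkp, 16.6% for Ldha, 13.5% for Aldoa, 7.51% for Tpi1 and 0% for Hk2. Reads from a shared stretch that align to several places are left out of the counts, so the levels of Eno1, Pgk1 and Pgam1 are lower than their transcripts'. Their places in the order by level, and the levels of the ratios of Eno1 to Eno2 and Eno3, are uncertain. Exons of Gpi1, Pfkp, Aldoa and Tpi1 overlap a gene on the other strand by 741, 748, 25 and 34 bases, and Pkm overlaps Gm49759 on its own strand by 767 bases. Such overlap in place can add to the shares above without making reads align to several places. For Pfkp all shared stretches lay in 1 other gene. The kit marks strand, but the strand setting of the counting is not given in the sources used here.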

How the data were processed

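RNA was extracted from tumor tissue with TRIzol, and stranded poly(A) libraries were read over their first 50 bases. Per the labels and methods, the authors aligned the reads to GRCm38 (mm10) with Bowtie and TopHat and counted them per Ensembl gene with HTSeq, and the values used here are their deposited counts, with no normalization. The annotation release and strand setting are not given in the sources used here. The 5 HTSeq summary lines were left out of library sizes and tests. Reads aligned to several places, 37.1% to 39.2% of all alignments in these summary lines, are not in the counts.

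Groups came from the sample titles. These number the tumors but do not say that each came from its own mouse, so p values measure the spread between these samples. They give no batch. Genes were filtered with filterByExpr (minimum count 10, minimum total 15), scaled with TMM factors and compared by edgeR's quasi-likelihood test (edgeR 4.0.16, R 4.3.3) over all 10 tumors without covariates, with Benjamini-Hochberg adjustment over 15299 genes. Log2 levels used a prior count of 2. At this depth 3 counts, the smallest level taken as detectable, equal 0.0760 to 0.107 CPM, and intervals cover counting and tumor spread together. The edgeR fit, the count of tumor orders and the likeness measure were tested on simulated data. Positions came from GENCODE and upstream sequences from RefSeq, both for GRCm38.

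The members and gene lists were chosen with earlier results of these data known. Named were Cda, all members, their isoenzymes in 8 ratios, pathway genes with an unadjusted p under 0.05, the 5 genes most like and 3 least like the members, and, chosen after their values were seen, the genes that shared the members' order of tumors. Correlations between members had been planned over all 10 tumors. As the tumors fell into separate clusters on the members' share of counts, the correlations were computed over 6 (exact permutations, smallest possible p 0.00139). Alternatives were DESeq2's size factors and Wald test (DESeq2 1.42.0), limma-voom (limma 3.58.1), library totals, TMM without glycolysis genes, other filters, a replicate block, the skeletal muscle score as covariate, a prior count of 0.5 and removal of each tumor. Removal of sgCda replicates 3 and 4 together and lengths of coding transcripts were added after seeing the data.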

Additional observations from a re-analysis of the deposited data

How the results depend on the processing

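The count of members past an adjusted p of 0.05 was 0 in the fits by edgeR, DESeq2 and limma-voom and in every alternative run, as were those of pathway genes and isoenzyme ratios. None of the fold changes below passed the test in any of these fits, so a change of sign is a movement around 0. On the log2 scale, Ldha moved from 0.014 to −0.0013 without the filter, −0.0060 with limma-voom, −0.00050 with the replicate block and −0.036 with the muscle score, which also turned Pfkp to −0.019. Hk3 moved from 0.024 to −0.013 with limma-voom, −0.012 with the block and −0.14 with the muscle score. Without sgCda replicates 3 and 4, values were −0.14 for Hk2, −0.034 for Gpi1, −0.089 for Pfkp, −0.079 for Aldoa, −0.038 for Pgk1, −0.014 for Ldha, −0.32 for Hk3 and 0.038 for Aldoc. The cause was not tested.

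Leaving out each tumor in turn gave log2 fold changes from −0.028 to 0.17 for Hk2, −0.048 to 0.088 for Gpi1, −0.060 to 0.092 for Pfkp and −0.064 to 0.17 for Aldoa. They ran from −0.089 to 0.050 for Tpi1, −0.079 to 0.19 for Pgk1, −0.15 to 0.063 for Pgam1, −0.18 to 0.044 for Eno1, −0.13 to 0.031 for Pkm and −0.11 to 0.11 for Ldha. For other genes they ran from −0.24 to 0.15 for Hk3, −0.12 to 0.034 for Pfkl, −0.21 to 0.036 for Aldoc and −0.012 to 0.27 for Eno3. The difference in the log2 ratio of Aldoa to Aldoc ran from −0.058 to 0.26 and that of Eno1 to Eno2 from −0.64 to 0.026.

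Same-numbered tumors of both groups correlated at −0.028, −0.024, 0.331, −0.427 and 0.343 in their deviations from the group means, and those of 3 of the 5 numbers correlated better with a tumor of another number, so the numbers were not taken to pair tumors. With the replicate block, 0 of 10 members passed either threshold, Hk1 had an unadjusted p of 0.0536 (edgeR, adjusted p = 0.99995) and the pathway count at an unadjusted p under 0.05 went from 1 to 0. Leave-one-out correlations between members were not run, since 5 tumors are too few. Without the filter, 830 of 26302 genes had an unadjusted p under 0.05 against 382 of 15299. Each member had 1786 or more counts in every tumor, so counting error is small beside the spread between tumors.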
